A study of Mus musculus with 35 samples.

Results

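The enzymes described here handle glutamine, glutamate, aspartate and proline in OT-I cytotoxic T lymphocytes (CTLs). They are 8 of the 48709 genes listed in every library, and were chosen by name: Gls2, Glud1, Glul, Aldh18a1, Pycr1, Prodh, Got1 and Got2. The data are 35 RNA libraries. They fall into 7 groups of 5 biological replicates, numbered 1 to 5: a starting group at 0 h, and cultures of 24 h at pH 7.4, pH 7 or pH 6.6, either without IL-2 or with 200 IU/mL recombinant murine IL-2, the cytokine that sustains proliferation of activated CD8+ T cells. All groups, 0 h included, came from OT-I mice, whose T-cell receptor transgene recognizes ovalbumin. Their splenic CD8+ T cells had been primed through CD3 and CD28 and then expanded in IL-2, so that the cells without IL-2 had been withdrawn from it for 24 h. For most of its experiments, the study lowered the pH with HCl in a low glucose DMEM with serum. This medium supplied glutamine as the stable dipeptide GlutaMAX and contained non-essential amino acids. The age and sex of the OT-I mice were not given in the sources used here.

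Glutamine is a main carbon and nitrogen source of proliferating T cells. The enzyme encoded by Gls2 releases its amide nitrogen and leaves glutamate, and glutamine synthetase, encoded by Glul, makes glutamine again. Glutamate can be converted to alpha-ketoglutarate by glutamate dehydrogenase (Glud1), or can pass its amino group to oxaloacetate through the aspartate aminotransferases, of which Got1 encodes the cytosolic and Got2 the mitochondrial form, giving aspartate for nucleotide synthesis and moving reducing equivalents in the malate-aspartate shuttle. Glutamate is also the precursor of proline: Aldh18a1 encodes the enzyme of the first steps, Pycr1 a mitochondrial reductase of the last step, and Prodh the dehydrogenase that begins proline breakdown.

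Between 16721319 and 34033340 reads fell on genes in each library. Expression levels are given as CPM (reads of a gene in proportion to the reads on all genes) after scaling by the TMM method, and all 8 enzymes passed the filter on low counts. All 7 markers of CD8+ effector T cells were detected in 35 of 35 libraries, and Cd8a was at 673.8 CPM or more. Their summed level was between 2275 and 4298 CPM in the 4 groups without IL-2 after 24 h or at pH 6.6 with IL-2, and between 7805 and 13540 CPM in the other groups. Over the 35 libraries, Gzmb ranged from 36.7 to 9010 CPM and Prf1 from 11.1 to 685.7 CPM. The others ranged less: Cd3d from 281.8 to 882.2 CPM, Cd3e from 373.5 to 630.9 and Cd3g from 398.6 to 1197. Cd8a was at 673.8 to 1596 CPM and Cd8b1 at 211.5 to 413.6 CPM. The 3 B cell markers reached 0.381 CPM in sum, the 4 myeloid markers 3.35 CPM, the 3 markers of red cells and platelets 0.235 CPM and Cd4 2.48 CPM, and Ms4a1 and Hbb-bs were at 0 in 35 libraries. Of 2 epithelial and fibroblast markers, Epcam was at 1.52 to 13.75 CPM and Col1a1 at 0.43 CPM or less. Klrb1c, an NK cell marker, was detected in every library at 8.27 to 94.9 CPM, whereas Ncr1 did not exceed 0.0694 CPM. The part of marker levels in the results was not tested.

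Promoter sequence was available from RefSeq (GRCm38.p6) for 7 of the 8 genes, all but Gls2. Each window held 250 bases before and 50 after the annotated start. After the sequences had been seen, 2 motifs were searched on both strands: CACGTG, the E-box read by Myc and its partner Max, and TGATGNAA (TTNCATCA on the other strand), the core of amino acid response elements. CACGTG was in 7.15% and TGATGNAA in 3.97% of 32851 promoter windows of the same length. The stretches from 250 to 31 bases before the start are shown for the 3 enzymes whose windows hold a match, with the match in capitals. They lie at chr11:120643779-120643998 (Pycr1), chr19:43524636-43524855 (Got1) and chr19:40588494-40588713 (Aldh18a1), and are read 5′ to 3′ on the minus strand, on which all 3 genes lie.
Pycr1: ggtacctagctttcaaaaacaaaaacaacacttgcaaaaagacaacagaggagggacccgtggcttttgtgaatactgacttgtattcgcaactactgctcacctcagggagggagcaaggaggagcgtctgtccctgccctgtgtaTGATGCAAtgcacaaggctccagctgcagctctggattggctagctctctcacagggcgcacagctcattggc
Got1: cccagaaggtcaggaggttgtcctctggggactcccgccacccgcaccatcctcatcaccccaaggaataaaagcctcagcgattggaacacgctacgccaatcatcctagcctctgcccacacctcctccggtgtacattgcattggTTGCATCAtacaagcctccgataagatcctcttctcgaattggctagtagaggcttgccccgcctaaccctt
Aldh18a1: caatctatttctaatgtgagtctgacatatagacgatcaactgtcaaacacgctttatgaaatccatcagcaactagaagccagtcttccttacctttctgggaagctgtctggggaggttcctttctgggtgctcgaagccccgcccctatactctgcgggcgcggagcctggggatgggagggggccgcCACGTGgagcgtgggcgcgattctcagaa
The match began 103 bases before the start of Pycr1, 102 before that of Got1, where it was on the other strand, and 59 before that of Aldh18a1. The motifs did not overlap each other. The windows of Glud1, Glul, Prodh and Got2 held neither set of letters. These matches describe the sequence only. No binding was measured.

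The enzymes differed widely in level and in how far the level moved between groups. Per kilobase of exon, Glud1 was the most abundant of the 8 in each of the 7 groups, at 55.04 to 61.5 CPM per kb on average, and Prodh the least, at 0.00336 to 0.0909 CPM per kb. At pH 7.4 with IL-2, Got2 (40.99 ± 1.93 CPM per kb, SD, n = 5), Aldh18a1 (37.0 ± 4.37), Got1 (30.4 ± 1.57) and Glul (15.9 ± 0.822) followed Glud1. In acid with IL-2 the second place was held by Glul (23.3 ± 4.52), ahead of Got2 (17.6 ± 1.17), Aldh18a1 (15.3 ± 1.42) and Got1 (9.07 ± 0.544). This is also the order found in the 3 groups without IL-2 after 24 h. Between its lowest and highest group mean, Glud1 differed 1.12-fold, Glul 1.74-fold, Got2 2.47-fold, Aldh18a1 3.11-fold, Got1 4.63-fold and Gls2 9.11-fold. Pycr1 and Prodh spanned 93.1-fold and 27.04-fold, but from group means of 0.129 and 0.0262 CPM, which rest on few reads.

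**Figure D1:**
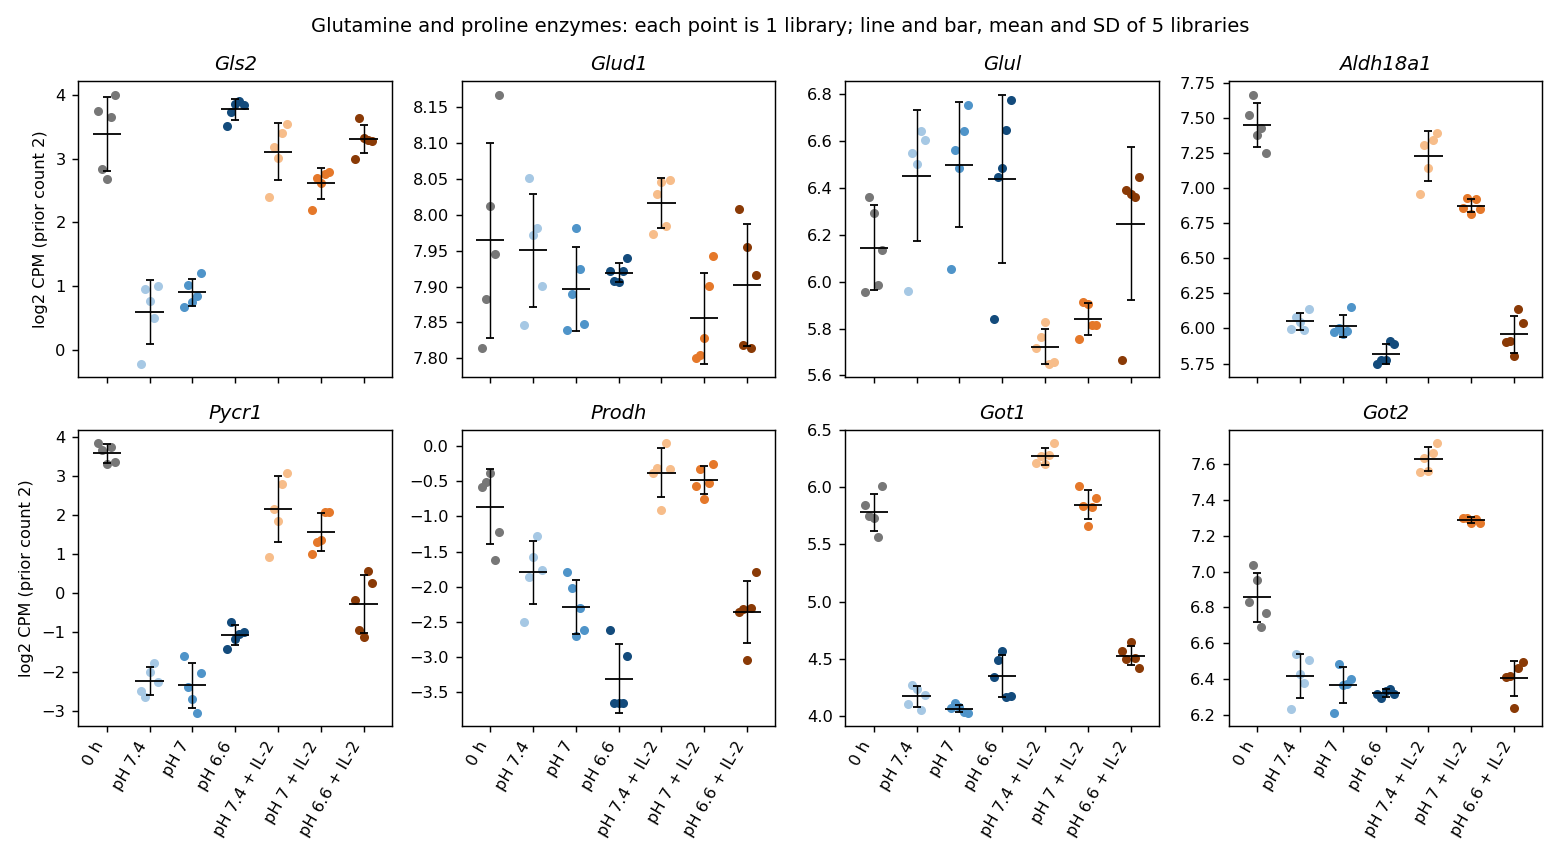
Level of each enzyme in 35 libraries (vertical axis, log2 CPM with a prior count of 2, with a separate scale for each gene) by group (horizontal axis); each point is 1 library, and the line and bar are the mean and SD of 5 libraries. Aldh18a1 and Got2 with IL-2 at pH 6.6 overlap each group cultured without IL-2, Got1 there overlaps only pH 6.6 without IL-2 and lies above the other groups without it, Gls2 is low only at pH 7.4 and pH 7 without IL-2, and the scale of Glud1 covers less than that of any other gene.

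Aldh18a1 and Pycr1, which make proline, were higher at pH 7.4 with IL-2 than at pH 6.6 with IL-2 or at pH 7.4 without it. Aldh18a1 (ENSMUSG00000025007, chr19:40550257-40588463, minus strand, GRCm38 throughout) encodes delta-1-pyrroline-5-carboxylate synthase, which commits glutamate to proline. In replicates 1 to 5 it was at 124.4, 158.5, 141.1, 162.3 and 167.6 CPM at pH 7.4 with IL-2. At pH 6.6 with IL-2 it was at 59.6, 59.97, 55.8, 70.5 and 65.7 CPM. Every library at pH 6.6 was below every library at pH 7.4, and the level was 2.42-fold lower (log2 fold change -1.27 ± 0.073, standard error, adjusted p = 1.06e-16, edgeR's quasi-likelihood test, lower in 5 of 5 pairs). In these bulk samples, fewer cells of a type and less RNA of a gene per cell cannot be told apart. At pH 7 with IL-2 the values, 116.1, 121.7, 112.6, 120.9 and 115.1 CPM, were between those of the other groups with IL-2, without overlap, and 1.28-fold below pH 7.4 (adjusted p = 0.000601). Without IL-2 the level was 63.4 to 70.4 CPM at pH 7.4, 62.15 to 70.99 at pH 7 and 53.7 to 59.98 at pH 6.6. IL-2 raised it 2.27-fold at pH 7.4 (adjusted p = 3.15e-16) and 1.82-fold at pH 7 (adjusted p = 1.33e-12). At pH 6.6 the log2 difference made by IL-2 was 0.14, with a 95% interval from -0.005 to 0.29 (adjusted p = 0.156).

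Pycr1 (ENSMUSG00000025140, chr11:120635712-120643769, minus strand), the reductase that finishes proline synthesis, was at 14.2, 12.6, 9.71, 13.3 and 10.2 CPM at 0 h. At pH 7.4 with IL-2 it was at 1.83, 4.37, 3.49, 6.79 and 8.35 CPM. At pH 6.6 with IL-2 it was at 0.809, 0.4398, 0.378, 1.398 and 1.12 CPM. The groups at pH 7.4 and pH 6.6 did not overlap, and the level was 5.88-fold lower in acid (log2 fold change -2.56 ± 0.27, adjusted p = 3.33e-10, lower in 5 of 5 pairs). These values came from 45 to 185 reads a library at pH 7.4 and 9 to 34 at pH 6.6. Of these groups, only that at pH 7.4 met the filter on low counts in every library, so this p supports little beyond the counts. Without IL-2 at pH 7.4 only 17 reads were found in 5 libraries, 2 to 5 in each. IL-2 thus raised it 34.03-fold at pH 7.4 (log2 fold change 5.09 ± 0.36, adjusted p = 1.18e-14), and from the summed reads, 605 against 17, the ratio was 36.5, with a 95% counting interval from 22.6 to 63.1. Between these groups Pycr1 reached the filter on low counts only through that with IL-2, so this p too supports little beyond the counts. Without IL-2 the direction of the pH difference was the opposite: 50 reads were counted at pH 6.6, 7 to 16 in each library, and all 5 libraries were above the 5 at pH 7.4. The log2 fold change was 1.57 ± 0.51 (adjusted p = 0.00705), which did not pass the threshold of 0.05 without the libraries of replicate 2 (1.26, adjusted p = 0.0667). Pycr1 passed the filter on low counts through groups with more reads and could not be tested when only these groups were fitted, so this p supports little beyond the counts. The highest of these levels without IL-2 was 0.523 CPM.

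Prodh (ENSMUSG00000003526, chr16:18060357-18090203, minus strand), which opens proline breakdown, was close to the limit of detection, with 0 to 23 reads a library. With IL-2, 17, 21, 11, 23 and 16 reads were found at pH 7.4. At pH 7 with IL-2 there were 15, 20, 14, 17 and 18. At pH 6.6 with IL-2 there were 2, 3, 1, 3 and 5. The libraries at pH 6.6 were all below those at pH 7.4, 5.60-fold by the fit (log2 fold change -2.49 ± 0.39, adjusted p = 7.12e-07), and the ratio of the summed reads, 14 to 88, was 0.172 (95% counting interval from 0.0906 to 0.305). Between these groups, only that at pH 7.4 had enough reads for the filter on low counts, so this p supports little beyond the counts. Without IL-2 the sum was 27 reads at pH 7.4 and 3 at pH 6.6, a ratio of 0.116 (0.0225 to 0.377), and no read was found in 3 of the 5 libraries at pH 6.6. Prodh passed the filter through groups with more reads and could not be tested when only these groups without IL-2 were fitted, so no call is drawn from its adjusted p in the fit of all groups (0.000199). The log2 difference between acid with and acid without IL-2, each against pH 7.4, was 0.41 with a 95% interval from -0.92 to 1.74 (adjusted p = 0.592), too wide to tell the effects apart. Counting intervals cover counting error only.

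Both aspartate aminotransferases followed the same order of groups as each other with IL-2. Got1 (ENSMUSG00000025190, chr19:43499752-43524605, minus strand) was at 74.2, 77.0, 73.4, 77.7 and 83.45 CPM at pH 7.4 with IL-2. At pH 7 with IL-2 it was at 64.4, 57.1, 50.6, 56.6 and 59.7 CPM. At pH 6.6 with IL-2 it was at 23.7, 22.5, 24.96, 22.65 and 21.3 CPM. No library overlapped between any pair of these groups. The level was 3.35-fold lower at pH 6.6 than at 7.4 (log2 fold change -1.75 ± 0.081, adjusted p = 6.78e-19, lower in 5 of 5 pairs) and 1.34-fold lower at pH 7 (adjusted p = 0.000273). Without IL-2 it stayed between 16.25 and 23.6 CPM at all 3 pH values. IL-2 raised it 4.30-fold at pH 7.4 (adjusted p = 2.25e-21) and 3.46-fold at pH 7, and at pH 6.6 the log2 difference was 0.17 with a 95% interval from 0.007 to 0.34 (adjusted p = 0.122).

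Got2 (ENSMUSG00000031672, chr8:95864134-95888547, minus strand) was at 188.6, 198.4, 188.8, 202.6 and 210.3 CPM at pH 7.4 with IL-2. At pH 7 with IL-2 it was at 157.6, 157.5, 154.3, 156.8 and 154.7 CPM, and at pH 6.6 with IL-2 at 85.2, 85.3, 75.5, 88.0 and 90.2 CPM. These 3 groups did not overlap either. The level was 2.33-fold lower at pH 6.6 (log2 fold change -1.22 ± 0.064, adjusted p = 1.33e-17) and 1.27-fold lower at pH 7 (adjusted p = 0.000294). Without IL-2 it was at 74.05 to 92.9 CPM at pH 7.4 and pH 7, and at 78.3 to 81.3 CPM at pH 6.6. Of the 50-base stretches of its transcripts, 74.4% were found in no other gene, because pseudogenes such as Got2-ps1 share the others, and its reads there could have been left uncounted. Its exons also share 8.997% of their bases with Gm45760 on the opposite strand, which had 0 to 2 reads a library.

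Gls2 (ENSMUSG00000044005, chr10:128194457-128210004, plus strand), the liver-type glutaminase, had another pattern. Without IL-2 at pH 7.4 it was at 0.775, 1.85, 1.61, 1.34 and 1.93 CPM. Without IL-2 at pH 6.6 it was at 11.3, 13.3, 14.4, 14.98 and 14.3 CPM. The level in acid without IL-2 was thus 9.27-fold higher (log2 fold change 3.21 ± 0.21, adjusted p = 1.08e-14, higher in 5 of 5 pairs), and it was the highest group mean of the 7. At pH 7 without IL-2 it was at 1.51, 1.94, 1.60, 1.72 and 2.23 CPM, overlapping pH 7.4. With IL-2 at pH 7.4 it was at 5.19, 8.96, 8.005, 10.5 and 11.6 CPM, and with IL-2 at pH 6.6 at 7.92, 12.3, 9.94, 9.74 and 9.66 CPM. These groups overlapped, and the log2 fold change of 0.20 ± 0.18 did not pass the test (adjusted p = 0.312, 95% interval from -0.16 to 0.55). IL-2 raised Gls2 5.89-fold at pH 7.4 (adjusted p = 4.61e-13) and 3.37-fold at pH 7 (adjusted p = 2.29e-09), whereas at pH 6.6 the log2 difference was -0.46 (95% interval from -0.81 to -0.11, adjusted p = 0.0512). At 0 h it was at 11.06 ± 4.18 CPM (SD, n = 5), the widest spread of the 7 groups in CPM. The exons of Gls2 share 2.79% of their bases with Spryd4 on the opposite strand. Without IL-2, Spryd4 was on average at 6.25 CPM at pH 7.4 and 5.97 CPM at pH 6.6.

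Glul (ENSMUSG00000026473, chr1:153899944-153909723, plus strand), which makes glutamine, moved in the direction opposite to that of the aminotransferases. With IL-2 at pH 7.4 it was at 52.4, 54.2, 56.7, 50.2 and 50.4 CPM. With IL-2 at pH 6.6 it was at 50.7, 83.9, 82.8, 82.3 and 87.2 CPM. Replicates 2 to 5 were above every library at pH 7.4, and replicate 1 was within their range. The level was 1.44-fold higher in acid (log2 fold change 0.52 ± 0.10, adjusted p = 2.60e-05, higher in 4 of 5 pairs), and 0.74 on the log2 scale without the libraries of replicate 1 (adjusted p = 1.18e-08). Replicate 1 was also the lowest of its group in the 3 groups without IL-2 after 24 h, where it was at 62.2, 66.4 and 57.3 CPM at pH 7.4, pH 7 and pH 6.6, beside 87.3 to 109.4 CPM in the other 12 libraries. IL-2 lowered Glul 1.65-fold at pH 7.4 (log2 fold change -0.72 ± 0.10, adjusted p = 9.96e-08) and 1.58-fold at pH 7. Without IL-2 the log2 difference at pH 6.6 against 7.4 was -0.005, with a 95% interval from -0.21 to 0.199. Of its 50-base stretches 87.4% were found in no other gene, and its exons share 3.49% of their bases with the opposite strand gene Teddm2. With IL-2, Teddm2 had 5 to 8 reads a library at pH 7.4 and 29 to 57 at pH 6.6, beside 1116 to 1562 and 878 to 2098 of Glul. On the same strand, 2.80% of the exon bases of Glul are shared with Mir8114.

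Glud1 (ENSMUSG00000021794, chr14:34310727-34345265, plus strand), glutamate dehydrogenase, passed the test in none of the 11 comparisons. Its 35 values were between 222.8 and 287.3 CPM. In acid with IL-2 its log2 fold change against pH 7.4 was -0.11, with a 95% interval from -0.23 to 0.010 (adjusted p = 0.0888). With IL-2 the 5 libraries at pH 7, 222.8, 223.5, 227.3, 239.0 and 246.0 CPM, were all below the 5 at pH 7.4, 251.2, 261.1, 264.1, 253.0 and 264.5 CPM, with a log2 fold change of -0.16 ± 0.060 that missed the threshold in edgeR (adjusted p = 0.0575) and passed it in DESeq2 (adjusted p = 0.015).

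Counted over the 8 enzymes, 6 passed the threshold of 0.05 at pH 6.6 against 7.4 with IL-2, 5 lower and 1 higher. Of the 13819 genes tested 76.3% passed it, 40.9% lower and 35.4% higher, so that passing the test was common in this comparison. The median log2 fold change was -1.25 over the 8 enzymes and -0.067 over all genes. Prodh and Pycr1 are counted among the 5 lower, though for both only the group at pH 7.4 met the filter on low counts in every library. Between pH 7 and pH 7.4 with IL-2, 5 enzymes passed, all lower (Aldh18a1, Pycr1, Got1, Got2 and Gls2), where 19% of all genes passed and 9.83% were lower. Gls2 (log2 fold change -0.52, adjusted p = 0.0393) and Pycr1 (-0.68, adjusted p = 0.033) were close to the threshold. Without the libraries of replicate 2, 3, 4 or 5 neither passed it (adjusted p from 0.0735 to 0.145), and 3 enzymes were then called. At pH 6.6 against 7.4 without IL-2, 5 enzymes passed (Gls2, Pycr1 and Got1 higher, Prodh and Aldh18a1 lower), beside 67.0% of all genes, 31.6% higher and 35.4% lower. Pycr1 and Prodh are counted here from the fit of all groups only. The rise of Got1 in that comparison was 0.19 on the log2 scale (adjusted p = 0.0446) and was lost without replicate 1, 2, 3 or 4 (adjusted p from 0.0631 to 0.198). The fall of Aldh18a1, 0.23 on the log2 scale (adjusted p = 0.00565), was lost without replicate 3 (adjusted p = 0.0577), and Got2, at -0.096, was called without replicate 1 (-0.17, adjusted p = 0.0403). Between pH 7 and pH 7.4 without IL-2, edgeR called 0 of the 8 enzymes, beside 1.68% of all genes. None of the 8 had an unadjusted p under 0.05 there, and DESeq2 also called 0.

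IL-2 raised 6 of the 8 enzymes and lowered 1 at pH 7.4, where 80.4% of all genes passed, 39.3% higher and 41.1% lower. The same counts were found at pH 7, where 77.2% passed, 37.6% higher and 39.5% lower. The enzymes that rose at both pH values were Pycr1, Gls2, Got1, Prodh, Got2 and Aldh18a1, and the enzyme that fell was Glul. Pycr1 and Prodh reached the filter on low counts only through groups with more reads, not through those without IL-2. Their calls at both pH values thus support little beyond the counts. At pH 6.6, 1 of the 8 passed, higher, beside 23.7% of all genes, 13.2% higher. It was Prodh, with 14 reads against 3, a ratio of 4.98 and a counting interval from 1.39 to 27.01 (adjusted p = 0.0324), and this call was lost without replicate 2, 4 or 5 (adjusted p from 0.104 to 0.142). Prodh could not be tested when only these groups were fitted, so the count gives no support. Without replicate 2, Pycr1 and Gls2 were called instead. Aldh18a1 and Got1, which did not pass, were each higher with IL-2 in 5 of 5 pairs.

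Whether acid acted differently in the presence of IL-2 was tested as an interaction term. It was called for 6 of the 8 enzymes, 1 higher and 5 lower, as for 67.0% of all genes (34.3% higher and 32.8% lower). On the log2 scale it was -4.13 ± 0.57 for Pycr1 (adjusted p = 1.36e-07), -3.02 ± 0.27 for Gls2 (adjusted p = 1.55e-11) and -1.93 ± 0.11 for Got1 (adjusted p = 8.24e-16). It was -1.13 ± 0.090 for Got2, -1.04 ± 0.10 for Aldh18a1 and 0.53 ± 0.14 for Glul. Each of these had the same sign in 5 of 5 replicates. Behind them are different patterns. Gls2 rose in acid without IL-2 and was not called with it. Pycr1 fell in acid with IL-2 (-2.56) and was higher in acid without it (1.57), where 50 reads were set against 17. It passed the filter there only through other groups, so this part of its interaction supports little beyond the counts. Got2, Got1 and Aldh18a1 fell with IL-2, with smaller differences without it (-0.096, 0.19 and -0.23).

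**Figure D2:**
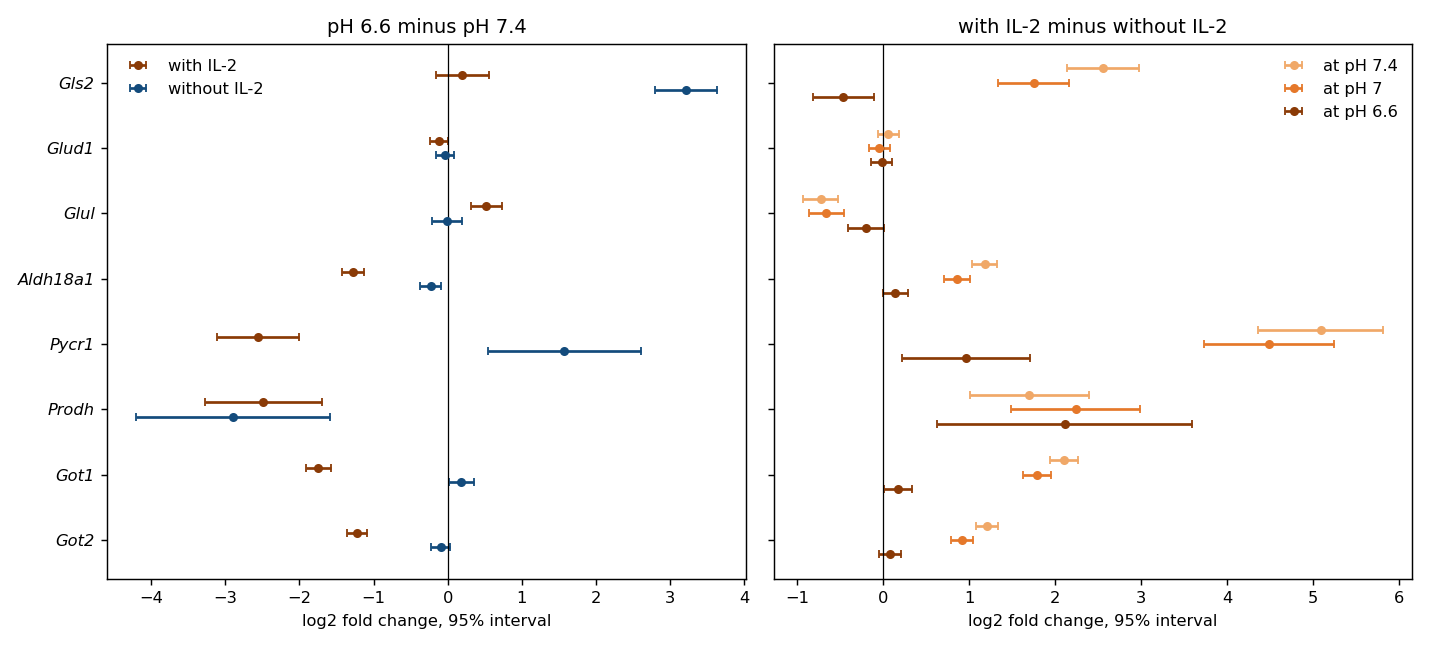
Log2 fold changes of the 8 enzymes (horizontal axis, with 95% intervals) for pH 6.6 against 7.4, in IL-2 and in its absence (left), and for the addition of IL-2 at 3 pH values (right); points are fits over 5 replicates a group. The intervals of Aldh18a1, Pycr1, Got1 and Got2 lie below 0 for acid with IL-2, and their IL-2 effects are smaller at pH 6.6 than at the other pH values.

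Cells in acid with IL-2 were also set beside cells at pH 7.4 that lacked IL-2. For 5 enzymes no difference was called: the log2 fold changes were -0.010 for Got2 (95% interval from -0.14 to 0.12), -0.089 for Aldh18a1 (-0.24 to 0.058), -0.048 for Glud1 (-0.17 to 0.074), -0.20 for Glul (-0.41 to 0.004) and -0.78 for Prodh (-1.75 to 0.18). Gls2 was 6.74-fold higher in acid with IL-2 (adjusted p = 4.23e-13), Pycr1 5.79-fold (adjusted p = 1.18e-05) and Got1 1.28-fold (adjusted p = 0.000303). Pycr1 and Prodh could not be tested here when only these groups were fitted. Of all genes 64.4% were called, 30.4% higher. This comparison and that of pH 6.6 with pH 7.4 in IL-2 share the libraries at pH 6.6 with IL-2.

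Against 0 h, cells kept at pH 7.4 with IL-2 had higher Got2 (1.70-fold) and Got1 (1.40-fold) and lower Pycr1 (2.63-fold), Glul (1.34-fold) and Aldh18a1 (1.17-fold), where 59.9% of all genes passed, 29% higher and 30.9% lower. The change of Aldh18a1, -0.22 on the log2 scale (adjusted p = 0.00768), was lost without replicate 1 or 3 (adjusted p = 0.0969 and 0.0587). Gls2, at -0.35 (adjusted p = 0.0867), was called without replicate 2 or 3 (adjusted p = 0.0265 and 0.0442), and Prodh, at 0.495 (adjusted p = 0.145), without replicate 3 (0.79, adjusted p = 0.0406). Without IL-2 at pH 7.4, 6 enzymes were lower than at 0 h and Glul was higher (log2 fold change 0.30, adjusted p = 0.00762), beside 75.2% of all genes, 36.9% higher and 38.3% lower. The rise of Glul was lost without replicate 4 (adjusted p = 0.0874). Prodh is counted among the 6 from the fit of all groups only, and of these groups Pycr1 reached the filter only through 0 h. The falls were 89.4-fold for Pycr1, 7.49-fold for Gls2, 3.06-fold for Got1, 2.65-fold for Aldh18a1, 2.31-fold for Prodh and 1.36-fold for Got2.

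The order of the 7 group means was followed for each enzyme. For Aldh18a1 it ran from 0 h (175.3 ± 19.1 CPM, SD, n = 5) through pH 7.4 with IL-2 (150.8 ± 17.8) and pH 7 with IL-2 (117.3 ± 3.90) to the groups without IL-2 and pH 6.6 with IL-2 (56.4 to 66.2). The neighbours 0 h and pH 7.4 with IL-2 overlapped, as did neighbours among the lowest 4. For Got1 and Got2 the highest means were those of pH 7.4 with IL-2 (77.1 ± 3.98 and 197.7 ± 9.29 CPM), followed by pH 7 with IL-2 (57.7 ± 5.03 and 156.2 ± 1.57) and 0 h (55.1 ± 6.27 and 116.2 ± 11.3). The values of Got1 overlapped between pH 7 with IL-2 and 0 h, and those of Got2 did not. For Gls2 the 5 highest groups, from pH 6.6 (13.7 ± 1.46 CPM) to pH 7 with IL-2 (6.09 ± 0.941), overlapped from neighbour to neighbour, and a gap separated them from pH 7 (1.801 ± 0.289) and pH 7.4 (1.498 ± 0.465) without IL-2. For Glul the gap lay between 0 h (71.2 ± 8.94 CPM) and pH 7 with IL-2 (57.3 ± 2.70). For Pycr1, 0 h (11.98 ± 1.96 CPM) stood apart, pH 7.4 (4.97 ± 2.61) and pH 7 (3.01 ± 1.04) with IL-2 overlapped, as did pH 6.6 with (0.830 ± 0.438) and without IL-2 (0.403 ± 0.0838), and pH 7.4 and pH 7 without IL-2 were lowest. For Glud1 and Prodh each neighbour overlapped the next, and Prodh ran from pH 7.4 with IL-2 (0.709 ± 0.178 CPM) to pH 6.6 without it (0.0262 ± 0.0382).

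To compare enzymes with each other inside a library, where any common scaling cancels, differences of log2 CPM were taken for 3 pairs in 4 comparisons and tested by exact two-sided permutation of 5 against 5 libraries, whose smallest possible p is 0.00794, with adjustment over the 12 tests. Exon length was not corrected for in these differences, and it cancels only in their shifts between groups. Got1 stood 1.36 below Got2 at pH 7.4 with IL-2 (mean difference -1.36 ± 0.019, SD, n = 5) and 1.88 below at pH 6.6 with IL-2 (-1.88 ± 0.18). The exons of Got1 cover 2539 bases and those of Got2 4824. Per kilobase, their means at pH 7.4 with IL-2 were 30.4 and 40.99 CPM per kb. The cytosolic form thus lost 0.52 on the log2 scale relative to the mitochondrial form, in 5 of 5 pairs (adjusted p = 0.0136, exact permutation test). Without IL-2 at pH 7.4 the difference was -2.24 ± 0.086, so that IL-2 raised Got1 over Got2 by 0.89 (adjusted p = 0.0136, exact permutation test). Without IL-2 the shift at pH 6.6 against 7.4 was 0.27 in the other direction (adjusted p = 0.0423, exact permutation test), and the ranges overlapped. It was not called without replicate 2, 3, 4 or 5 (adjusted p from 0.0762 to 0.152, exact permutation test).

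Aldh18a1 and Glul, which take glutamate to proline and to glutamine, changed places. With IL-2 at pH 7.4 Aldh18a1 was above Glul by 1.25, 1.55, 1.32, 1.69 and 1.73 in log2 CPM. With IL-2 at pH 6.6 the differences were 0.23, -0.48, -0.57, -0.22 and -0.41. In CPM, Glul was thus the higher of the pair in replicates 2 to 5. Per kilobase of exon it was also the higher in replicate 1, at 15.27 beside 14.64 CPM per kb for Aldh18a1. The shift was -1.796 (adjusted p = 0.0136, exact permutation test, lower in 5 of 5 pairs), and at pH 7 it was -0.47 (adjusted p = 0.0136, exact permutation test), with no overlap. Without IL-2 the shift at pH 6.6 against 7.4 was -0.22 (adjusted p = 0.303, exact permutation test, lower in 5 of 5 pairs), and without the libraries of replicate 1 it was -0.24 (adjusted p = 0.0343, exact permutation test). Pycr1 relative to Aldh18a1 fell by 1.17 in acid with IL-2 (adjusted p = 0.0357, exact permutation test, lower in 5 of 5 pairs, with overlapping ranges), and rose by 1.41 in acid without IL-2 and by 3.22 with IL-2 at pH 7.4 (both adjusted p = 0.0136, exact permutation test). The first of these 3 was not called without replicate 2, 3, 4 or 5 (adjusted p from 0.0762 to 0.129, exact permutation test). Both rises rest on 17 reads of Pycr1 in 5 libraries at pH 7.4 without IL-2, and their sizes depend on the prior count. With a prior count of 0.5 in place of 2 they were 1.71 and 3.70. A test within the 5 replicate pairs gave adjusted p = 0.075 (exact sign-flip test) for each of the 9 called differences and for Aldh18a1 minus Glul in acid without IL-2, and 5 pairs allow no smaller unadjusted value than these had.

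**Figure D3:**
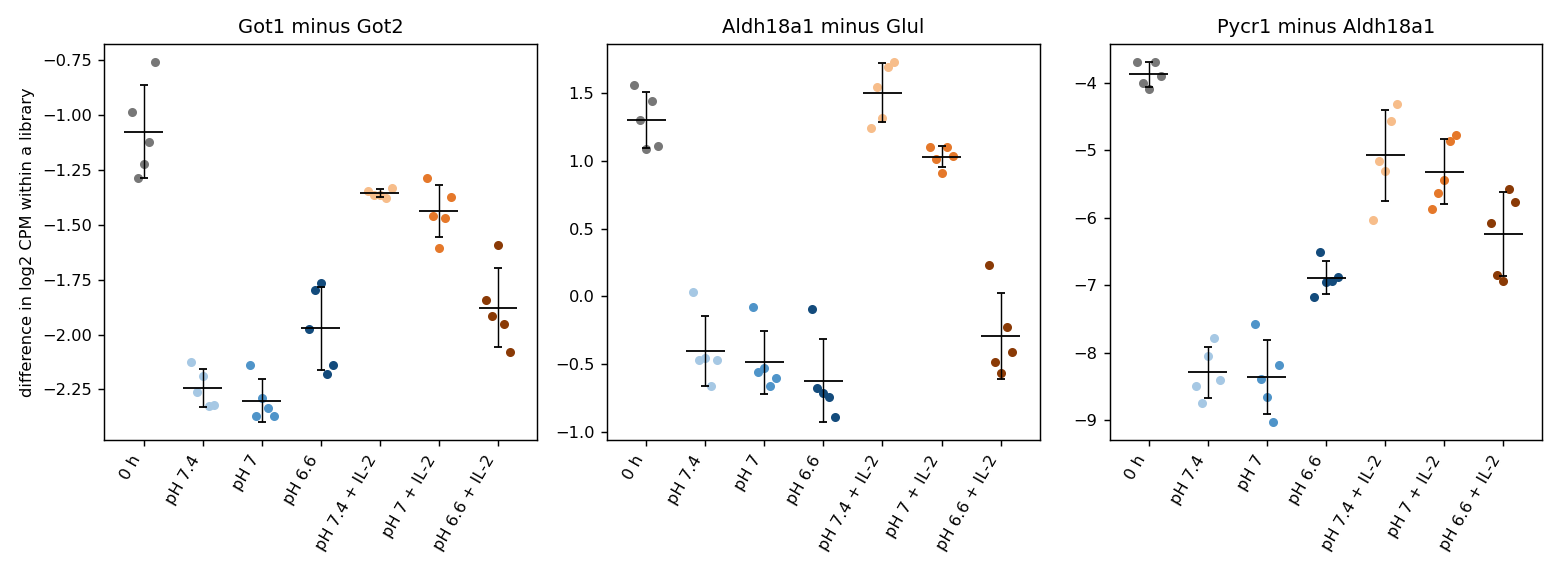
Differences of log2 CPM within a library (vertical axis) for Got1 minus Got2, Aldh18a1 minus Glul and Pycr1 minus Aldh18a1, by group (horizontal axis); each point is 1 library, and the line and bar are the mean and SD of 5 libraries. With IL-2, the libraries at pH 6.6 lie below those at pH 7.4 for the first pairs, from -2.08 to -1.59 beside -1.38 to -1.33, and from -0.57 to 0.23 beside 1.25 to 1.73.

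Other genes of the same pathways were taken from 5 lists. Of the enzymes that use the amide nitrogen of glutamine, 9 of 10 were tested, and 7 fell and 1 rose at pH 6.6 against 7.4 with IL-2 (median log2 fold change -1.95), beside 40.9% of all genes lower and 35.4% higher (median -0.067). Ppat, which starts purine synthesis, fell from 143.7 ± 11.4 to 26.4 ± 5.14 CPM (log2 fold change -2.45 ± 0.11, adjusted p = 5.84e-19), and Ctps, a CTP synthase, by 2.45 on the log2 scale (adjusted p = 3.44e-17). The other CTP synthase gene, Ctps2, rose from 58.4 ± 5.30 to 113.5 ± 16.2 CPM (log2 fold change 0.96 ± 0.069, adjusted p = 4.18e-14). Without IL-2 the same comparison gave 3 higher and 1 lower (median 0.018), beside 31.6% of all genes higher and 35.4% lower (median -0.034).

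Of the other glutamate transaminases, 7 of 10 were tested, and 5 fell and 1 rose in acid with IL-2 (median -2.39), beside the same 40.9% and 35.4% of all genes. Bcat1, the cytosolic branched-chain aminotransferase, fell from 44.0 ± 7.08 to 2.97 ± 0.959 CPM (log2 fold change -3.91 ± 0.15, adjusted p = 1.55e-20), and Kyat3, a kynurenine aminotransferase, fell by 3.25 on the log2 scale (adjusted p = 5.70e-17). Gpt, an alanine aminotransferase, was the only riser (0.37 ± 0.15, adjusted p = 0.029). Without IL-2 the same comparison gave 2 higher and 2 lower (median -0.038), beside 31.6% and 35.4% of all genes.

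Of the other proline and ornithine genes, 5 of 9 were tested and all 5 fell in acid with IL-2 (median -1.09), where 40.9% of all genes fell. Prep, a prolyl peptidase, fell by 2.42 on the log2 scale (± 0.087, adjusted p = 2.75e-21) and Pycr3, which encodes another pyrroline-5-carboxylate reductase, by 1.24 (± 0.11, adjusted p = 3.53e-12). Without IL-2, 1 of these 5 rose and 2 fell (median -0.20), beside 31.6% and 35.4% of all genes. Of the malate-aspartate shuttle and the glutamate carriers, 6 of 7 were tested and all 6 fell (median -1.03), again beside 40.9%. Slc25a13, an aspartate-glutamate carrier, fell from 33.5 ± 2.74 to 6.55 ± 1.89 CPM (log2 fold change -2.38 ± 0.13, adjusted p = 1.26e-17), and Slc25a22, a glutamate carrier, by 1.28 (adjusted p = 1.30e-10). Without IL-2, 2 of the 6 rose and 3 fell in acid (median -0.32), beside the shares of all genes just given for that comparison.

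Of the plasma membrane transporters of glutamine and proline, 7 of 11 were tested, and 4 fell and 2 rose in acid with IL-2 (median -0.498), near the shares of all genes, 40.9% and 35.4%. Slc7a5, the large neutral amino acid transporter that exchanges glutamine for leucine, fell from 294.3 ± 16.1 to 35.5 ± 15.2 CPM (log2 fold change -3.14 ± 0.16, adjusted p = 1.01e-17). Slc1a5, a glutamine importer, fell by 0.96 on the log2 scale (adjusted p = 4.84e-11). The system A transporter gene Slc38a2 rose from 309.2 ± 19.6 to 463.4 ± 47.8 CPM (log2 fold change 0.58 ± 0.081, adjusted p = 9.19e-08), and Slc36a1, a proton-coupled carrier of proline and other small amino acids, rose by 0.51 (adjusted p = 1.46e-05). Without IL-2, Slc36a1 went the other way in acid, from 53.4 ± 5.92 to 28.1 ± 1.53 CPM (log2 fold change -0.92 ± 0.094, adjusted p = 3.31e-10), and of the 7 transporters 2 rose and 2 fell (median 0.19), beside 31.6% and 35.4% of all genes. At pH 7.4, IL-2 raised 7 and lowered 2 of the 9 tested amide users. It raised 5 and lowered 1 of 7 transaminases, raised 4 and lowered 1 of 5 other proline and ornithine genes, raised all 6 shuttle and carrier genes, and raised 6 and lowered 1 of 7 transporters, beside 39.3% of all genes higher and 41.1% lower.

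**Figure D4:**
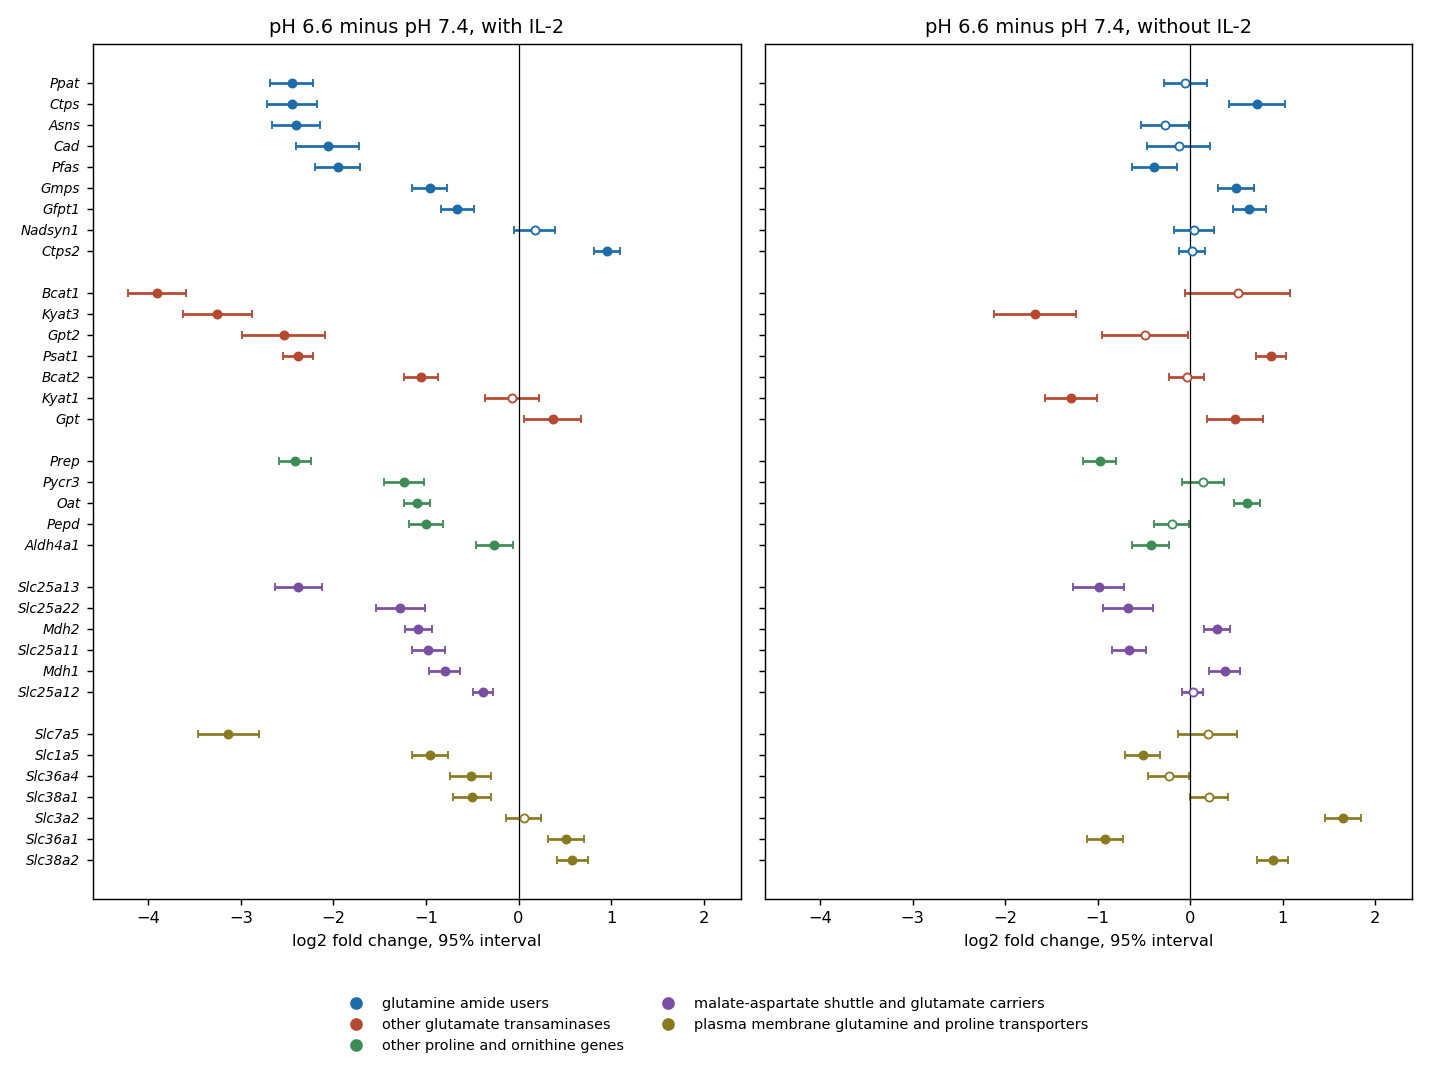
Log2 fold changes at pH 6.6 against 7.4 (horizontal axis, with 95% intervals) of the tested genes of 5 pathway lists (colours), with IL-2 (left) and without IL-2 (right), each fitted over 5 replicates a group; filled points passed the test and open points did not. With IL-2, 27 of the 34 genes lie below 0 as calls and 4 above, where 40.9% of all genes were lower and 35.4% higher. Without IL-2, 10 are calls above 0 and 10 below, near the shares of all genes, 31.6% higher and 35.4% lower.

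Over the 35 libraries, the level of Got1 varied with that of Got2 (Pearson r = 0.924) and with those of Aldh18a1 (0.908) and Pycr1 (0.891), while Glul ran against Got1 (-0.754). These correlations share the 7 groups and the depth of the libraries, and describe mainly the differences between groups. By the same measure, among 8779 genes whose average log2 CPM reached 3, the genes most like Aldh18a1 were Nars, Thoc6 and Pgd (r from 0.977 to 0.978), those most like Pycr1 were Pfkp and Pkm (0.98), followed by Mif, and those most like Got1 were Cct6a, C1qbp and Phgdh (0.985 to 0.987). Prodh was most like Prep, Cluh and Ftsj3 (0.935 to 0.936) and Got2 most like AI506816, Dnajb11 and Eftud2 (0.985 to 0.992). For Gls2 they were Atp6v0e, Slc3a2 and Mapkapk2 (0.945 to 0.959), for Glul Ralgds, Ubl3 and Zyx (0.856 to 0.879), and for Glud1, whose level hardly moved, Ttc1, Gtf2h1 and Tbca (0.678 to 0.817). Myc, a transcription factor the study examined, was highest at 0 h, at 234.0 ± 32.1 CPM. With IL-2 it was at 160.1 ± 14.4 CPM at pH 7.4, 123.0 ± 13.8 at pH 7 and 54.8 ± 10.4 at pH 6.6. Without IL-2 it was at 16.2 ± 3.36 CPM at pH 7.4, 15.25 ± 2.27 at pH 7 and 26.1 ± 4.56 at pH 6.6.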

How the data were processed

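The deposited files hold raw counts of reads per gene, made by the authors, with 1 file a library. Per the labels, libraries were made with the TruSeq stranded mRNA kit. The submitters' processing notes name cutadapt 1.8, STAR 2.5.2b, HTSeq 0.6.1 and GRCm38, and their settings were not given in the sources used here. Rows naming no gene were left out of library sizes: reads aligned at several places were 32.8 to 48.26% and reads in no feature 2.58 to 11.1% of a library, so that reads of genes with close copies may be missing. Between 16721319 and 34033340 reads (median 24730020) were counted on genes.

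Counts of all 35 libraries were fitted together in edgeR 4.0.16 (R 4.3.3; TMM, filterByExpr with a minimum count of 10, robust quasi-likelihood test, group and replicate number as terms), and p-values were adjusted by Benjamini-Hochberg over 13819 genes with a threshold of 0.05. The replicate number was kept as a block after the paired tests of the study's methods, and the labels number the replicates. Deviations of same-numbered libraries correlated at 0.198 to 0.416 in 5 of 5 pairs at pH 6.6 against 7.4 with IL-2. Over all groups the 105 such pairs ranged from -0.0387 to 0.682, and 95 were over 0.1. The pairing was weaker between pH 7.4 without IL-2 and 0 h (-0.0222 to 0.364, 3 of 5 over 0.1). No 2 libraries of a group agreed within sampling noise. Differences within a library used log2 CPM with a prior count of 2 and exact two-sided permutation tests. DESeq2 1.42.0, other scalings, other filters, the fit without the block, a fit of only the groups compared and leaving out each replicate number (all libraries that carry it) were alternatives. The fitting code was tested on simulated data.

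Positions and gene overlaps came from GENCODE M21. The 8 enzymes and the 5 pathway lists were chosen with earlier results of these data known. Of each list, the genes named were up to 2 that fell and up to 2 that rose most among those past the threshold at pH 6.6 against 7.4 with IL-2. A few listed genes are not reported here and were left out of the counts over lists.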

Additional observations from a re-analysis of the deposited data

Results flagged for a closer look

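Within the groups of 5 libraries, 77 sets of values were checked for a library that stood apart from the others by Dixon's criterion, and 6 were found. Chance gives about 1 in 20. Glul was low in replicate 1 at pH 7.4 without IL-2 (62.2 CPM, others 90.5 to 100.1) and at pH 6.6 with IL-2 (50.7 CPM, others 82.3 to 87.2). For the same replicate, the within-library difference of Aldh18a1 and Glul was high without IL-2 at pH 7 (-0.078, others -0.665 to -0.526) and at pH 6.6 (-0.092, others -0.889 to -0.675). Gls2 was low in replicate 1 at pH 7 with IL-2 (4.49 CPM, others 6.08 to 6.81), and Aldh18a1 was high in replicate 5 at pH 7 without IL-2 (71.0 CPM, others 62.15 to 64.0).

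By the interaction term of edgeR's quasi-likelihood test, 6 enzymes, beside 67.0% of all genes, responded to pH 6.6 differently when IL-2 was present. Passing this test was thus common among all genes. On the log2 scale the difference was -4.129 for Pycr1, -3.017 for Gls2, -1.931 for Got1, -1.125 for Got2, -1.041 for Aldh18a1 and 0.528 for Glul. For Pycr1, the part without IL-2 rests on 50 reads against 17.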

How the results depend on the processing

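Of 960 log2 fold changes of single enzymes under the alternatives, 872 kept their direction and their side of the threshold, 33 lost the call, 22 gained it and 33, none of them called, changed sign. Between pH 7 and pH 7.4 with IL-2, 3 enzymes were called, not 5, under total count scaling, with every gene kept, without the replicate block, and without replicate 2, 3, 4 or 5 (range 3 to 5), and DESeq2 called 6, adding Glud1. Over all genes, total count scaling called 2525 of 13819 there, and 1888 of 25852 were called with every gene kept. Without the block 1660 of 13819 were called, and by DESeq2 2943. At pH 6.6 against 7.4 without IL-2, 2 of the 6 enzymes tested were called when only these groups were fitted, beside 8828 of 12741 genes. When a replicate was left out, 3 to 5 enzymes were called, beside 8310 to 8974 genes. For IL-2 at pH 6.6, 3 enzymes were called under total count scaling, 0 with every gene kept and 5 when only these groups were fitted (0 to 2 when a replicate was left out). The calls over all genes moved too: they were 3023 of 13819, 2562 of 25852 and 5369 of 12514 in the first 3 of these settings. For pH 6.6 with IL-2 against pH 7.4 without it, total count scaling called 5 enzymes, adding Glud1 and Glul as lower, beside 8853 of 13819 genes.

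Over all genes, calls between pH 7 and pH 7.4 with IL-2 went from 2623 to 1660 without the replicate block and to 4388 with only these groups fitted (1283 to 2425 without a replicate). Without IL-2 they went from 232 to 56 and 942 (35 to 332). For IL-2 at pH 6.6 they went from 3278 to 5369 with only these groups fitted (2119 to 2630). The cause was not tested. The replicate block changed no other count of calls by over 1.5 times, but within pairs 9 within-library differences lost the call (adjusted p = 0.075, exact sign-flip test): -0.520, 0.272 and 0.887 for Got1 minus Got2, -1.796, -0.473 and 1.910 for Aldh18a1 minus Glul, and -1.168, 1.407 and 3.222 for Pycr1 minus Aldh18a1, for which fewer samples allow no smaller p. Leaving out a replicate, Got1 minus Got2 in acid without IL-2 ranged from 0.224 to 0.305, Pycr1 minus Aldh18a1 in acid with IL-2 from -1.450 to -1.035, and Aldh18a1 minus Glul in acid without IL-2 from -0.252 to -0.167, called without replicate 1 (-0.241).

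Total count scaling moved the share of calls that were higher from 48.2% to 65.7% for pH 7 with IL-2, from 47.2% to 34.7% for pH 6.6 without IL-2, from 55.5% to 74.6% for IL-2 at pH 6.6 and from 51.1% to 62.8% for the interaction. It moved the median of all genes from -0.034 to -0.187 for pH 6.6 without IL-2, where Got1 was then at 0.031 (adjusted p = 0.733) and Glud1 (-0.185) and Got2 (-0.248) were called lower.

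The signs that changed belong to values near 0, given here on the log2 scale, with the range over left-out replicates where one of them changed the sign. For Glud1, pH 6.6 against 7.4 without IL-2 gave 0.009 by relative log expression (RLE) size factors and by DESeq2. IL-2 at pH 7.4 gave -0.095 by total counts (-0.014 to 0.084), IL-2 at pH 7 -0.110 to 0.015, and IL-2 at pH 6.6 0.054 by total counts and 0.020 with only these groups (-0.035 to 0.042). The interaction gave 0.149 by total counts (-0.119 to 0.016). For pH 6.6 with IL-2 against pH 7.4 without it, Glud1 was at 0.006 by RLE and 0.005 by DESeq2 (-0.096 to 0.011) and Got2 at 0.044 and 0.043 (-0.051 to 0.053). Against 0 h, Glud1 was at -0.014 by total counts for pH 7.4 with IL-2, and at 0.000 by RLE and DESeq2 and 0.081 by total counts (-0.028 to 0.050) for pH 7.4 without it. Glul at pH 6.6 without IL-2 was at 0.037 by RLE and DESeq2 and 0.001 without the replicate block (-0.045 to 0.021). Pycr1 at pH 7 without IL-2 ranged from -0.512 to 0.300 and Prodh at pH 7 with IL-2 from -0.196 to 0.002. Depth limits Prodh, and Pycr1 without IL-2, to a few reads a library.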
